A study of Mus musculus with 6 samples.

Results

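Protein phosphatase 1 (PP1) was followed through 10 of its genes: the catalytic subunits Ppp1ca, Ppp1cb and Ppp1cc, the myosin phosphatase subunits Ppp1r12a, Ppp1r12b and Ppp1r12c, the inhibitors Ppp1r1a and Ppp1r2, and the nuclear and chaperone-like partners Ppp1r7 and Ppp1r8. The family was chosen on a measured value, the lower Ppp1cb signal after Hlxb9 siRNA, and its probe sets are all those annotated with 1 of these symbols alone. This gave 26 of 45037 probe sets and 10 of 18193 genes. The differences below belong to the comparison that chose the family, so they are given as a description, with no test of their own.

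The cells were MIN6, a mouse insulinoma line commonly used in place of primary pancreatic beta cells, grown in low glucose medium with serum. Nucleofection and a lipid reagent were used to deliver either a scrambled negative control siRNA or one that targets the homeobox factor Hlxb9, whose gene symbol is Mnx1. RNA was isolated after 72 hours and measured on an Affymetrix mouse expression array, 3 arrays per group. Transfections were admitted to the arrays by a western blot showing more than 75% loss of Hlxb9 protein, and the labels also call the samples sorted cells, with no gate named.

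PP1 removes phosphate from serine and threonine. Its catalytic subunits are nearly interchangeable as enzymes, and a large set of regulatory subunits, most of which dock through a short sequence known as the RVxF motif, decide where the enzyme sits and what it acts on. With the Ppp1r12 subunits it forms myosin phosphatase, which relaxes actomyosin; with glycogen-targeting subunits it controls glycogen synthase and phosphorylase; with Ppp1r15 subunits it reverses the block on translation in stressed secretory cells. Inhibitor 1, the product of Ppp1r1a, restrains PP1 once protein kinase A has phosphorylated it and is abundant in beta cells.

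Values are log2 signals from RMA, which makes arrays comparable and merges the probes of a probe set into 1 value. In the limma fit over all probe sets 0 of 45037 passed a Benjamini-Hochberg adjusted p of 0.05, that is 0%, with a smallest adjusted p of 0.623 and 3430 probe sets at an unadjusted p under 0.05, so no member passed either. Mnx1 itself read 7.82, 7.50 and 7.77 on control replicates 1 to 3 and 7.53, 7.41 and 7.28 on Hlxb9 siRNA replicates 1 to 3, a difference of -0.29 ± 0.13 log2 (limma moderated SE, n = 3 per group), and the groups overlapped. Of 10 beta cell markers, 7 had a probe set of their own, and these were all above the median of all probe sets, and so were 3 of 4 other islet markers, the glucagon, somatostatin and pancreatic polypeptide genes Gcg, Sst and Ppy, with the ghrelin gene Ghrl below it. None of 4 exocrine markers, 1 of 5 stromal and endothelial markers (Col1a1) and 1 of 4 immune markers (Cd68) lay above it. Summed over their lists, the log2 signals ran from 84.7 to 86.1 in controls and 84.6 to 85.4 after Hlxb9 siRNA for beta cell markers, 39.2 to 41.0 and 39.0 to 42.1 for other islet markers, 15.1 to 16.0 and 15.0 to 15.3 for exocrine, 20.1 to 21.0 and 19.6 to 19.8 for stroma and endothelium, and 15.6 to 16.8 and 16.5 to 17.0 for immune. Of the 7 beta cell markers only Slc2a2 was higher (0.16, and 0.47 without control replicate 3), and its arrays numbered 3 read 10.17 and 10.29. G6pc2 (-0.23, and -0.19 without control replicate 3) and Pdx1 (-0.11 and -0.08) were lower without overlap, as were 7.29% of all probe sets. Within these lists, Ppy read 9.86, 9.68 and 7.32 in controls and 10.95, 10.76 and 8.55 after Hlxb9 siRNA, higher by 1.08, 1.08 and 1.23 log2 within the pairs. Its difference of 1.13 became 0.32 without control replicate 3, which leaves the low Hlxb9 siRNA replicate 3 unpaired. Cd68, a macrophage marker, read 6.77, 7.06 and 6.66 in controls and 7.41, 7.40 and 7.28 after Hlxb9 siRNA, a difference of 0.54 without overlap, and 0.45 without control replicate 3. Of the 4 immune markers 3 were higher, and Adgre1 was lower, by -0.05 (-0.19 without control replicate 3), with signals from 2.71 to 3.36. Ptprc, the general leukocyte marker, lay below the median on every array, from 2.79 to 3.33, and Ghrl ran from 4.73 to 5.83 with a difference of -0.45 (-0.19 without control replicate 3). The part of these markers in the PP1 values was not tested. In such bulk RNA, fewer cells with a transcript and less of it per cell cannot be told apart.

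Control replicate 3 stood apart. For Gapdh, the gap in signal between the 3' and 5' control probe sets was 2.13 log2 on this array and 0.65 to 0.78 on the rest, and for beta-actin the gap was 3.22 against 2.41 to 2.69. It was either highest or lowest of the 6 arrays on 57.3% of all probe sets and on 17 of the 26 PP1 probe sets. Member differences that move by 0.05 log2 or more when it is left out are therefore given with and without it, as are those of the brightest probe sets of genes named from the related lists, and the part of RNA quality in them was not tested.

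Ppp1cb encodes the beta (also called delta) catalytic subunit, the form found in myosin phosphatase. It is read by 4 probe sets, and on each of them all 3 Hlxb9 siRNA arrays were below all 3 controls. Its brightest probe set, 1433540_x_at, read 11.83, 11.64 and 11.86 on control replicates 1 to 3 and 11.11, 11.17 and 11.36 on Hlxb9 siRNA replicates 1 to 3. The lowest control was thus well above the highest Hlxb9 siRNA array. The means were 11.78 ± 0.12 and 11.21 ± 0.13 (SD, n = 3), a difference of -0.56 ± 0.12 log2 (SE), or a signal 32.3% lower.

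The second probe set with the same suffix, 1456462_x_at, read 9.40, 9.35 and 9.77 in controls and 8.73, 8.84 and 9.05 after Hlxb9 siRNA. Here control replicate 3 was the highest array, and the difference was -0.64 ± 0.15 log2 (SE) with it and -0.51 without it. The suffix _x_at marks probe sets with probes that may also bind related transcripts. Over the whole array the 2441 probe sets of that kind had a median difference of -0.07, against 0.0041 over all probe sets.

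The other pair of Ppp1cb probe sets carry the plain suffix. Probe set 1426205_at read 11.18, 11.03 and 11.25 in controls and 10.48, 10.83 and 10.83 after Hlxb9 siRNA, a difference of -0.44 ± 0.13 log2 (SE). Hlxb9 siRNA replicate 1 lay apart from the other two on this probe set. Probe set 1431328_at read 11.35, 10.99 and 11.11 in controls and 10.77, 10.85 and 10.81 after Hlxb9 siRNA, a difference of -0.34 ± 0.12. This is the narrowest separation of the 4, with control replicate 2 close above the highest Hlxb9 siRNA array. The mean difference was -0.39 over the 2 plain probe sets and -0.60 over the 2 with the _x_at suffix.

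**Figure D1:**
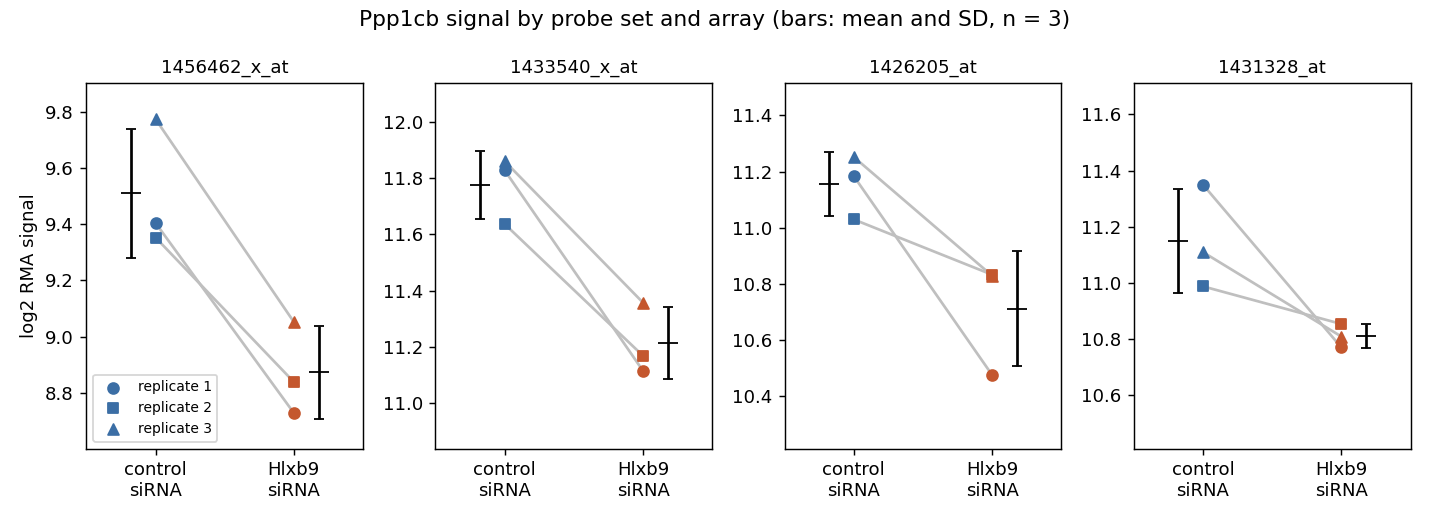
Log2 signal of the 4 Ppp1cb probe sets (1 panel each, vertical axes of equal span but different position) on the 3 control and 3 Hlxb9 siRNA arrays. Grey lines join arrays of the same replicate number and black bars give the mean and SD (n = 3); in every panel all Hlxb9 siRNA points lie below all control points, with differences from -0.64 to -0.34 log2.

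Arrays of the same number deviated together over the whole table, so Ppp1cb can also be read within pairs. All 12 differences, 4 probe sets in 3 pairs, ran from -0.72 to -0.13 log2. They were negative by construction, because the groups did not overlap on any of the 4 probe sets, so their sign adds nothing. Averaged over the 4 probe sets the pair of replicates 1 differed by -0.67, that of replicates 2 by -0.33 and that of replicates 3 by -0.49. The mean over pairs and probe sets was -0.50, a signal 29.1% lower, which is also the unpaired mean of the 4 probe sets. Pair 2, whose arrays lay closest to their group means over the whole table, showed the smallest difference.

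Probe sets of 1 gene share its RNA and are not replicates of the condition, but their agreement can be counted across the array. Of 1949 genes with at least 4 probe sets, 6 had every probe set without overlap between groups in 1 direction, 0.308%. Ppp1cb is 1 of the 4 that were lower, but it was chosen for its lower signal, so its place in this count lends it no support. The others, chosen here after their values were seen, were Hnrnpk, an RNA-binding protein (from -0.26 to -0.14 log2), Morf4l2, a subunit of a histone acetyltransferase complex (-0.43 to -0.15), and Mzt1, a partner of the gamma-tubulin ring (-0.47 to -0.26). The 2 that were higher were Sft2d2 (0.29 to 0.54) and Stx17, a SNARE of autophagosome fusion (0.20 to 0.37).

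The other catalytic subunits did not show the Ppp1cb pattern in their values. Ppp1ca, the alpha subunit, has a single probe set that read 11.82, 12.00 and 11.75 in controls and 12.04, 11.97 and 11.99 after Hlxb9 siRNA. Control replicate 2 lay among the Hlxb9 siRNA arrays, so the groups overlapped. The difference was 0.14 ± 0.11 log2 (SE), with a 95% interval from -0.11 to 0.39, and it was 0.09 without control replicate 3 and 0.02 with the array weights described below. Ppp1cc, the gamma subunit, read 13.18, 13.15 and 13.11 in controls and 13.15, 13.16 and 13.18 after Hlxb9 siRNA on 1450149_a_at, values that interleave. That difference was 0.018 ± 0.093 (95% interval -0.20 to 0.23). The second Ppp1cc probe set gave 0.033 ± 0.11, again with overlap. The difference between Ppp1cb and the other catalytic subunits was not tested, because Ppp1cb was chosen for its value.

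RefSeq promoter windows of GRCm38.p6 (250 bases before to 50 after a transcript start) were matched by symbol for 8 of the 10 genes, with 10 windows in all; Ppp1ca and Ppp1r1a had none. Homeobox factors such as the Hlxb9 product commonly recognise sites built around TAAT, so TAAT was searched on both strands (as ATTA on the other), along with the longer TAATTA, each match of which also contains TAAT. The first sequence is shown because Ppp1cb is the member whose probe sets all separated the groups, and covers the part of its window before the annotated gene, chr5:32458720-32458847 on the plus strand, with CG dinucleotides in capitals.

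Ppp1cb: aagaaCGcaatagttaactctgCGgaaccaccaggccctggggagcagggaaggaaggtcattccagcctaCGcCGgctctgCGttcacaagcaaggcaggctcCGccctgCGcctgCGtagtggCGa

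These 128 bases hold 9 CG dinucleotides, and the whole Ppp1cb window holds 31, against a median of 7 over all 32851 windows. TAAT has no match in the Ppp1cb window, which says only that these letters are not in it. Among the members 2 of the 10 windows had a match, 1 each, against 58.0% of all windows, and TAATTA occurred in 0 member windows against 5.29% of all. The 10 member windows held 8 to 42 CG dinucleotides, all above the median of 7. Shares with TAAT were not compared at equal CG count. The stretches with a match are printed below with TAAT in capitals, from minus-strand genes at chr1:134956041-134956084 for Ppp1r12b and chr4:132843395-132843419 for Ppp1r8. The matches begin 124 and 249 bases before the start site, and other windows of both genes had no match. A match of letters is a description and was not tied to binding.

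Ppp1r12b: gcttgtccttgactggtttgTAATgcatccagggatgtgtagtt

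Ppp1r8: tTAATgcagattgcagagctctagg

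The myosin phosphatase subunits place PP1 on myosin and other cytoskeletal substrates. Ppp1r12a, or MYPT1, is the widely expressed form and binds the Ppp1cb product. Its brightest probe set, 1437735_at, read 11.43, 11.43 and 11.40 in controls and 11.33, 11.45 and 11.45 after Hlxb9 siRNA. The groups overlapped, with a difference of -0.0081 ± 0.096 log2 (SE, 95% interval -0.23 to 0.21). Probe set 1437734_at varied more, at 10.06, 9.89 and 9.34 in controls and 9.64, 9.96 and 9.98 after Hlxb9 siRNA. Control replicate 3 was the lowest array there, and the difference went from 0.10 to -0.12 without it. Within pairs this probe set differed by -0.42, 0.07 and 0.64, with no common direction. The remaining Ppp1r12a probe sets differed by 0.09 and, on a dim one with a mean below the array median, by -0.14, the latter going to -0.29 without control replicate 3.

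Ppp1r12b, or MYPT2, is mainly a form of heart and skeletal muscle. Only 1 of its 4 probe sets had a mean above the array median, 1434786_at, which read 6.77, 6.85 and 7.21 in controls and 7.03, 6.96 and 6.75 after Hlxb9 siRNA. The arrays numbered 3 held both ends of this range, and the difference was -0.04 ± 0.15 log2 (SE) with control replicate 3 and 0.10 without it. The 3 dim probe sets differed by -0.39, -0.27 and 0.22, and without control replicate 3 by -0.30, -0.22 and 0.05. The last, 1445850_at, had that array lowest, at 3.89. On the lowest of these, 1460091_at, all 3 pairs were negative (-0.39, -0.29 and -0.48), but Hlxb9 siRNA replicate 2 at 4.87 lay above control replicate 1 at 4.83. Ppp1r12c, a further relative, differed by 0.06 ± 0.11 on its brighter probe set, and by -0.20 ± 0.18 on its dim one (-0.13 without control replicate 3), with overlap on both.

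The inhibitors came out close to their controls or a little above. Ppp1r1a read 12.23, 12.21 and 12.25 in controls and 12.31, 12.25 and 12.32 after Hlxb9 siRNA on its only probe set. All 3 pairs were positive (0.07, 0.04 and 0.07), although Hlxb9 siRNA replicate 2 fell just under control replicate 3. The group means of 12.23 ± 0.02 and 12.29 ± 0.04 (SD, n = 3) differed by 0.06 ± 0.093 log2 (SE), where limma's SE is larger than the spread of this probe set because it draws on all probe sets.

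Ppp1r2 encodes inhibitor 2, a small protein that binds the catalytic subunit directly. Its brightest probe set, 1448684_at, read 10.63, 10.69 and 10.49 in controls and 10.76, 10.85 and 10.86 after Hlxb9 siRNA. Every Hlxb9 siRNA array was above every control here, by 0.22 ± 0.10 log2 (SE) on average and by 0.16 without control replicate 3. The other 3 probe sets of the gene overlapped between groups and differed by -0.09, 0.03 and 0.13. Without control replicate 3 these stood at 0.04, -0.03 and -0.04. That array stood at -0.53 log2 relative to the mean of the other controls on 1417342_at and at 0.40 on 1417341_a_at.

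Ppp1r7 encodes SDS22, a leucine-rich repeat protein that accompanies newly made PP1 catalytic subunits. On 1417919_at the signal was 8.83, 8.96 and 9.03 in controls and 9.18, 9.12 and 9.05 after Hlxb9 siRNA, all above the controls but by a margin of only 0.02 between the nearest arrays. The difference was 0.17 ± 0.10 log2 (SE). The brighter probe set, 1448888_at, overlapped between groups and differed by 0.02 ± 0.12, and by -0.07 without control replicate 3. The pair differences of 1417919_at ran from 0.02 to 0.34.

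Ppp1r8 encodes NIPP1, a nuclear inhibitor of PP1 that is found with splicing factors. Probe set 1435821_s_at read 8.96, 8.98 and 9.89 in controls and 8.96, 8.74 and 8.86 after Hlxb9 siRNA. Control replicate 3 alone was high, by 0.92 log2 over the mean of the other controls. The difference was -0.43 ± 0.24 log2 (SE) with that array and -0.12 without it. The second probe set, 1424554_at, read 6.67, 6.66 and 7.37 in controls and 6.62, 6.75 and 6.80 after Hlxb9 siRNA, the same array again standing out by 0.71. Its difference turned from -0.17 to 0.06 without control replicate 3. The 5' to 3' gap of that array is given above, and its part in these values was not tested.

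**Figure D2:**
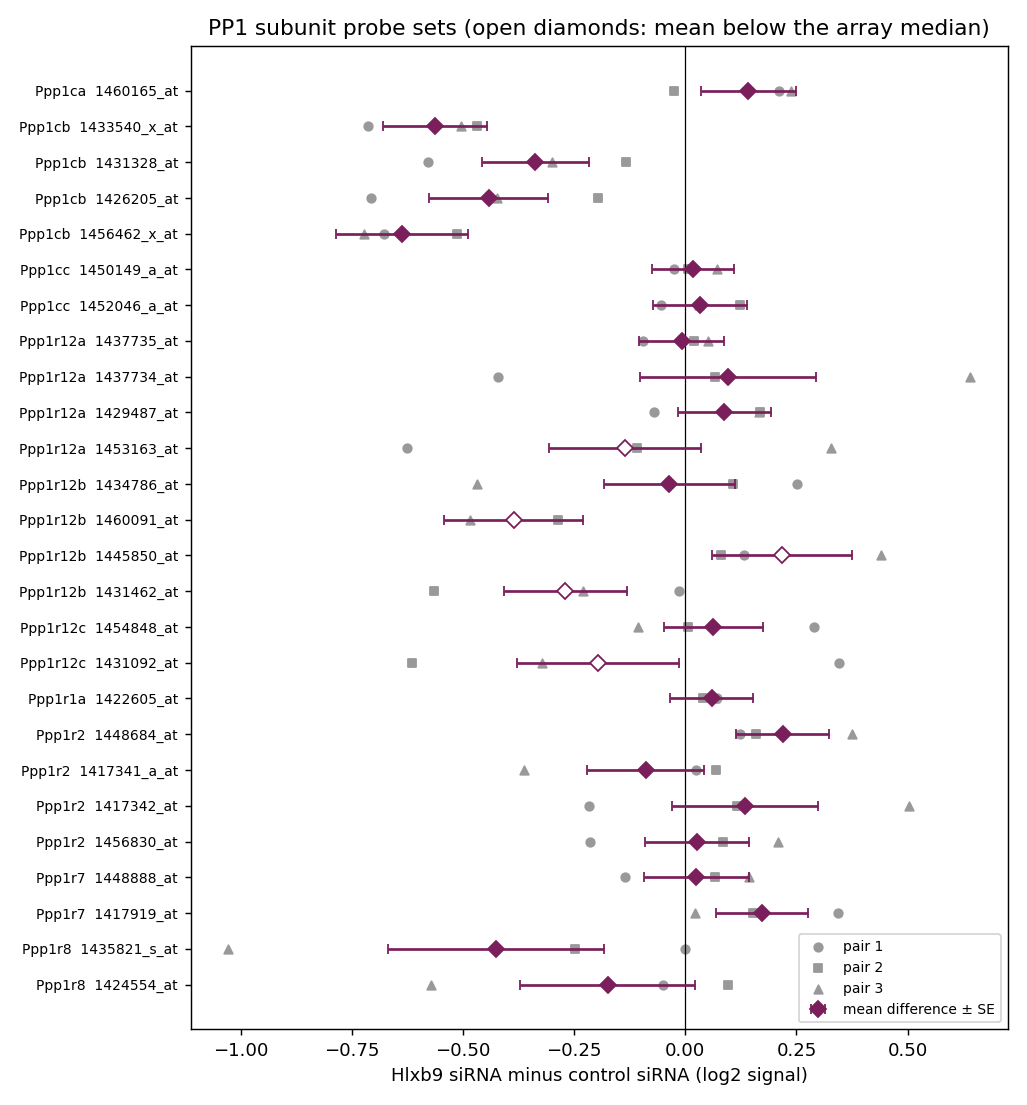
Difference in log2 signal, Hlxb9 siRNA minus control siRNA, for the 26 PP1 probe sets. Diamonds with bars are the mean difference and limma's SE (open where the probe set's mean lay below the array median), grey symbols are the differences within the 3 pairs of equal replicate number; the 4 Ppp1cb probe sets lie at -0.64 to -0.34, while 19 of the 22 others lie within 0.25 of 0. Among the others, Ppp1r8 1435821_s_at (-0.43) and the dim Ppp1r12b 1460091_at (-0.39) lie within the Ppp1cb range. The family was chosen for the lower Ppp1cb signal.

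Across the family, 13 probe sets had a higher mean after Hlxb9 siRNA and 13 a lower one, with a median of 0.0048 log2. By the brightest probe set of each gene 6 were higher and 4 lower (Ppp1cb, Ppp1r8, Ppp1r12b and Ppp1r12a), beside 49.4% lower among all 18193 genes, with a median of 0.02 for the members and 0.0023 for all genes. Groups did not overlap on 4 member probe sets with lower signal, all of Ppp1cb, for which the family was chosen, beside 7.29% of all probe sets. They did not overlap on 2 with higher signal (1 of Ppp1r2 and 1 of Ppp1r7), beside 8.27% of all. All 3 pairs were negative on 6 of the 26 probe sets, 4 of them of Ppp1cb, beside 16% of all probe sets, and positive on 4, beside 17.9%. Where groups do not overlap, as on the Ppp1cb probe sets, all pairs share a sign by construction.

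Of the 8 members with several probe sets, 4 had all of them in 1 direction: Ppp1cb and Ppp1r8 lower, Ppp1cc and Ppp1r7 higher, although centring each array on its median turned both Ppp1cc probe sets (to -0.03 and -0.02) and 1448888_at of Ppp1r7 (to -0.03). The other 4, Ppp1r12a, Ppp1r12b, Ppp1r12c and Ppp1r2, had probe sets in both directions. Leaving out control replicate 3 changed the sign of 8 of the 26 differences, in 6 genes, and moved 3 by over 0.2 log2, both of Ppp1r8 and 1437734_at of Ppp1r12a. The Ppp1cb differences without that array were -0.52, -0.51, -0.39 and -0.36. The 22 other probe sets then ran from -0.30 to 0.22.

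**Figure D3:**
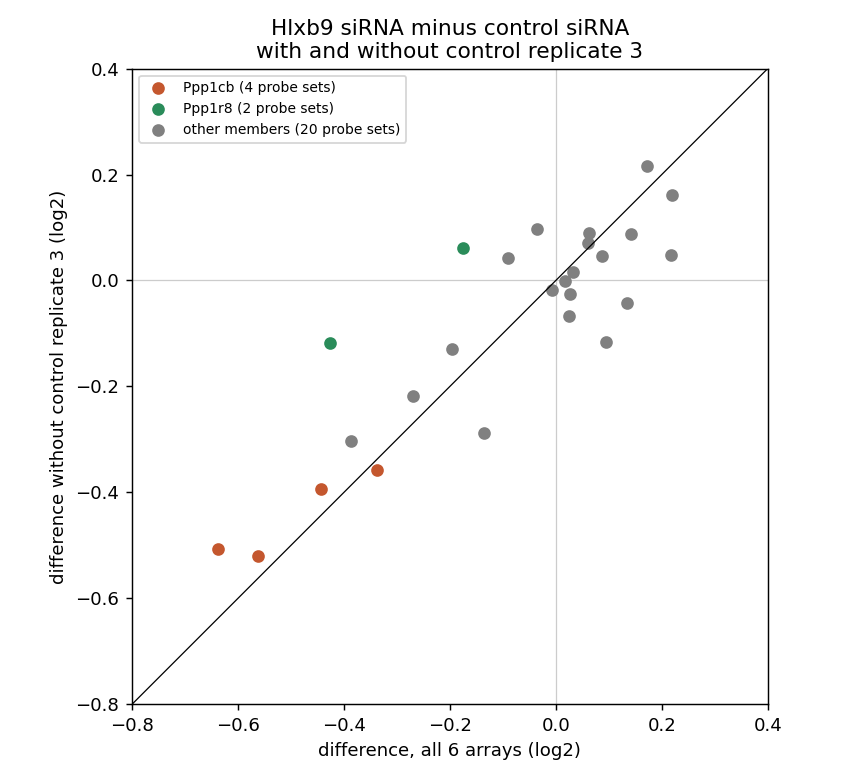
Hlxb9 siRNA minus control siRNA in log2 signal for each of the 26 PP1 probe sets, with all 6 arrays (horizontal) and without control replicate 3 (vertical); the diagonal marks equal values. The Ppp1cb probe sets stay between -0.52 and -0.36 without that array, while those of Ppp1r8 go from -0.43 and -0.17 to -0.12 and 0.06.

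When the limma fit weighted arrays by how well they followed their group, 553 probe sets passed as lower, 1.23% of all, and 2 of the 26 PP1 probe sets were among them, both of Ppp1cb. That gene was chosen for this same difference, so these calls are no test of it. The arrays numbered 2 took weights of 4.46 and 2.91 and the others 0.20 to 0.79. With any 1 array left out the weighted fit called 0 probe sets.

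Genes whose profile over the 6 arrays was nearest to the brightest Ppp1cb probe set were ranked by the root mean square distance of values centred on their own mean, among 11335 genes brighter than the array median. The nearest was Tmem64, a membrane protein, at 0.045 log2, with a difference of -0.64. It was followed by D030056L22Rik (distance 0.068, difference -0.48), Ust, a sulfotransferase of glycosaminoglycans (0.072, -0.47), Ect2, a factor of cytokinesis (0.072, -0.46), and Aktip (0.075, -0.50). The ranking used these same 6 arrays, so it fixes differences close to that of Ppp1cb. Other probe sets of these genes did not all repeat the pattern. Those of Tmem64 differed by 0.02 and 0.28, those of Aktip by -0.26 and 0.19, that of D030056L22Rik by -0.12 and that of Ust by -0.30. Ppp1cb's own other probe sets were farther, at 0.11 to 0.16, and 36 genes lay nearer than the closest of them.

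The wider setting of PP1 was described with 4 lists, 1 probe set per gene. None of their genes passed the fit over all probe sets. Of 45 genes listed as other PP1 regulatory subunits 24 had higher and 21 lower signal (median 0.03 log2). Of the lower ones 1 (-0.17) was read under the symbol Spn, matched as an alias of Ppp1r9b. Spn is also the symbol of sialophorin, which is not a PP1 subunit, so this value may not belong to the list. Phactr3, an actin-binding PP1 partner, read 7.17, 7.10 and 7.05 in controls and 7.54, 7.53 and 8.36 after Hlxb9 siRNA, without overlap. Its difference of 0.70 ± 0.22 (SE) leaned on Hlxb9 siRNA replicate 3. Ppp1r35, a protein of centriole growth, differed by -0.36 ± 0.18 with overlap, and by -0.21 without control replicate 3. Ppp1r16a, a membrane-bound relative of the myosin phosphatase subunits, differed by -0.35 ± 0.26 with control replicate 3, which alone read 9.40, and by -0.01 without it, while its other probe set differed by -0.43.

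Genes of glycogen synthesis and breakdown, which include enzymes that PP1 controls, had 9 higher and 10 lower values (median -0.0038). Phkb, a subunit of phosphorylase kinase, differed by -0.44 ± 0.17 log2 (SE), with all Hlxb9 siRNA arrays (8.02, 8.38 and 8.56) below the controls (8.63, 8.65 and 8.99), and by -0.32 without control replicate 3. Gsk3b, the kinase that opposes PP1 on glycogen synthase, differed by -0.33 ± 0.13 without overlap (-0.40 without control replicate 3), but its 5 other probe sets ran from -0.26 to 0.14. Pygl, the liver glycogen phosphorylase, differed by 0.38 ± 0.16, with Hlxb9 siRNA replicate 3 at 5.32 under control replicate 3 at 5.42, and by 0.48 without the latter array.

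Other serine and threonine phosphatases were split 10 and 10, with a median of -0.01 and a range from -0.28 to 0.14. Ppp2r1a, the scaffold of protein phosphatase 2A, had the lowest value, -0.28 ± 0.11 log2 (SE) on an _x_at probe set, and -0.19 without control replicate 3. Its 4 other probe sets ran from -0.28 to 0.10. Ppp2r2a, a regulatory subunit, differed by 0.14 ± 0.13 and Ppp2ca, the catalytic subunit, by -0.12 ± 0.13. Both were near 0 without control replicate 3, at 0.0096 and 0.011, though the other probe sets of Ppp2r2a ran from 0.19 to 0.28 and those of Ppp2ca from 0.18 to 0.34.

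Genes of cAMP and protein kinase A, which act on inhibitor 1, had 13 higher and 6 lower values and a median of 0.10 that became 0.03 without control replicate 3. Prkaca, a catalytic subunit of the kinase, read 12.07, 12.11 and 10.95 in controls and 11.95, 12.01 and 12.12 after Hlxb9 siRNA, so that its 0.32 ± 0.29 log2 (SE) became -0.06 without the low control replicate 3, and its other probe set differed by -0.27. Pde4d, a cAMP phosphodiesterase, differed by 0.27 ± 0.10, with all Hlxb9 siRNA arrays above the controls, and its other probe set by -0.05. Creb1, the transcription factor downstream of the kinase, also lay above on every array, by 0.26 ± 0.11, and its 5 other probe sets ran from 0.0087 to 0.28.

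**Figure D4:**
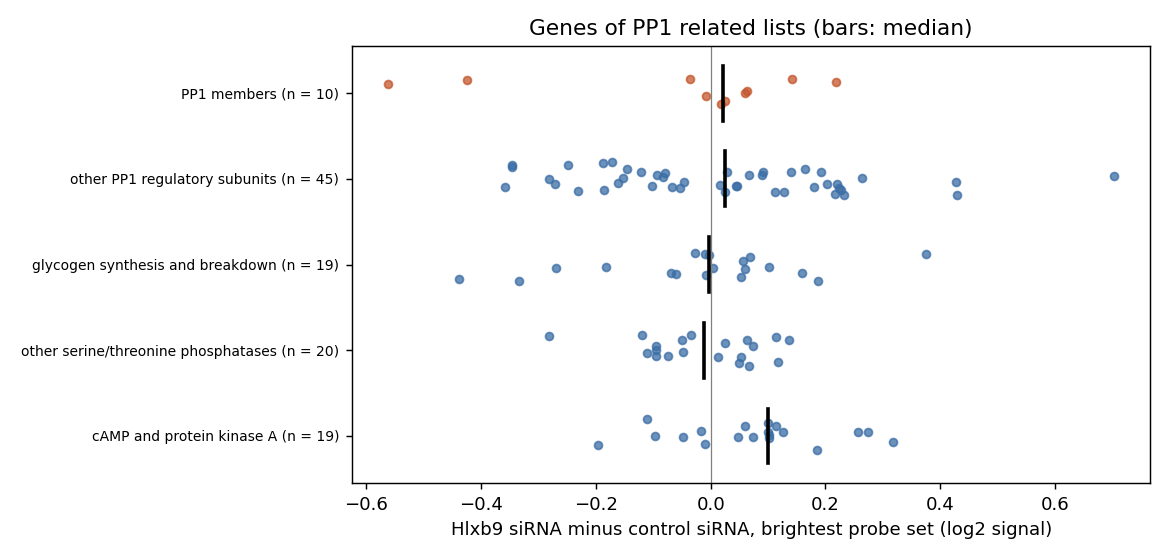
Difference in log2 signal, Hlxb9 siRNA minus control siRNA, for the brightest probe set of each gene (points, spread vertically to be visible) in the 10 PP1 members and the 4 related lists; black bars are medians. The medians lie between -0.01 and 0.10. The lowest point of the plot is Ppp1cb at -0.56, whose lower signal chose the family, and the highest is Phactr3 at 0.70. Among the other PP1 regulatory subunits, 1 point (-0.17) was read under the symbol Spn and may not be a PP1 subunit.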

How the data were processed

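The deposited series table gives log2 values that, per the submitters' processing notes, came from RMA and Partek (no versions given). RMA's settings, and whatever test the authors applied, were not given in the sources used here. Groups and replicate numbers follow the labels' titles. After 64 control probe sets were set aside, the groups were compared with limma 3.58.1 (R 4.3.3), with lmFit and eBayes, two-sided, no covariate, Benjamini-Hochberg adjustment over all 45037 probe sets and a threshold of 0.05. The script was tested on simulated data. Of these probe sets 34945 had 1 symbol in the platform annotation, 932 several and 9160 none. Each gene was read on its brightest probe set by overall mean.

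The members, lists and alternatives were chosen with earlier results of these data known. From each list the 3 genes of largest difference above the array median (5.16) are named; a further list is not reported here. Same-numbered arrays deviated together (r of 0.155, 0.165 and 0.202; other pairings 0.072 or lower), so numbers were taken to pair the arrays; the labels state no shared culture, and p-values may measure technical spread. Signal gives no depth, and 3 arrays per group limit the precision.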

Additional observations from a re-analysis of the deposited data

How the results depend on the processing

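The brightest Ppp1cb probe set stayed negative under each alternative tried: -0.56 log2 with the replicate block, which in equal pairs leaves the difference as it is, -0.61 after centring arrays on their medians, -0.48 with array weights, -0.50 as the mean of its 4 probe sets, and -0.63 to -0.51 with 1 array left out. The gene was chosen for this lower signal, and its groups did not overlap. The block, the weights, the mean of its 4 probe sets and leaving out 1 array therefore could not change the sign. The number of probe sets called was 0 with the block, centring, quantile normalization run again, 32 added before the log, dim probe sets left out, a mean-variance trend and any 1 array left out, but 1132 with array weights (579 higher, 553 lower) and 0 when these were combined, as a check added after the data were seen, with any 1 array left out. The pairing thus changed no call. Of the 10 members, 4 were lower by the brightest probe set, 6 after centring, 2 with array weights and 3 to 5 with 1 array left out. Member probe sets without overlap between groups numbered 6 of 26 (23.1%, beside 15.6% of all probe sets), 7 after centring (15.4% of all), 8 after repeated quantile normalization (15.3% of all), and 7 to 13 with 1 array left out, beside 21.6% to 29.3% of all. Of the 6, 4 were of Ppp1cb, whose lower signal chose the family. The member shares are therefore raised by that choice and are no result about the family. The 13 came without control replicate 1 (50% of members, 29.3% of all). With both arrays numbered 3 left out, likewise added later, there were again 13, beside 45.4% of all, and Ppp1cb stood at -0.59. Fewer arrays make such separation easier by construction. Centring moved Ppp1cc from 0.018 to -0.034 and Ppp1r1a from 0.06 to 0.0076, so their signs and sizes are within what the scaling sets; the median of all probe sets moved from 0.0041 to -0.048.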
